A study of Mus musculus with 7 samples.

Results

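The dentate gyrus and Ammon's horn are the 2 interlocking cell fields of the hippocampus, and their transcriptomes were compared in wild-type mice. The comparison rests on 4 of the 7 libraries of the series, 1 of wild-type dentate gyrus and 3 of wild-type Ammon's horn, chosen by the genotype and tissue given in the labels. The other 3 libraries are Ammon's horn of mice homozygous for a deletion of Khdrbs3, the gene of the splicing regulator KHDRBS3 (also called T-STAR). They were used only for the spread between libraries and as a second set of Ammon's horn levels. All 7 came from adult mice with no special treatment, and the strain label of every library, wild types included, is a Tstar null allele crossed back to C57Bl6 over 8 generations. The labels do not say whether the libraries came from separate animals or from pools, so a p-value measures only how far these libraries vary, which may be technical. There is 1 dentate gyrus library, with no replicate. Its spread was taken to equal that of the Ammon's horn libraries, and every value below describes these libraries. An exact permutation test of 1 library against 3, with the two-sided p taken as 2 times the 1-sided p, cannot give a p below 0.5.

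Polyadenylated RNA was sequenced. The gene table held 58527330 counts for the dentate gyrus and between 53357003 and 67692326 for wild-type Ammon's horn, and the exon-bin files held 34191866 and between 30867881 and 39904606. Mitochondrial genes took 9.87% of the dentate gyrus counts and between 10.4% and 10.9% of those of wild-type Ammon's horn. In the second exon bin of Khdrbs3, the 3 wild-type Ammon's horn libraries had 808, 1103 and 964 reads, the dentate gyrus 506 and the knockout libraries 6, 9 and 7.

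The dentate gyrus is built around granule cells, whose axons, the mossy fibres, release glutamate, zinc and dynorphin onto CA3 pyramidal cells. Its hilus holds mossy cells and interneurons, and its inner border keeps a niche of dividing progenitors into adult life. Ammon's horn holds the pyramidal cells of CA1, CA2 and CA3 and, around them, layers of myelinated fibres. Because whole tissue was sequenced, fewer cells of a type and less RNA per cell cannot be told apart in any value below.

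In all, 974 genes differed between the regions by the rule used here, a Benjamini-Hochberg adjusted p under 0.05 in edgeR's quasi-likelihood test together with a change of at least 2-fold. Of 24486 genes tested, 544 were higher in the dentate gyrus (2.22%) and 430 lower (1.76%). Without scaling between libraries beyond their totals the split was 728 higher and 334 lower, with the median of all genes shifted by 0.09 on the log2 scale. At least 4-fold changes were called for 119 genes higher and 85 lower, and at least 8-fold changes for 30 and 33. Every one of the 544 and 430 lay outside the range of the 3 wild-type Ammon's horn libraries, and 535 and 429 lay outside the range of all 6 Ammon's horn libraries. Being outside the range of 3 libraries was common on its own, since 35.9% of all genes tested stood above it and 35.9% below. Of the genes called, 404 higher and 325 lower were protein coding. Records of small nucleolar RNAs (snoRNAs), which lie inside the introns of other genes, were called higher in 11 cases and lower in 0, and 131 were not called. The gene table also holds intronic reads, so these records can share reads with the genes around them. The part of such reads in the 11 calls was not tested. The plot of gene levels in both regions shows the called genes on either side of the diagonal.

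**Figure D1:**
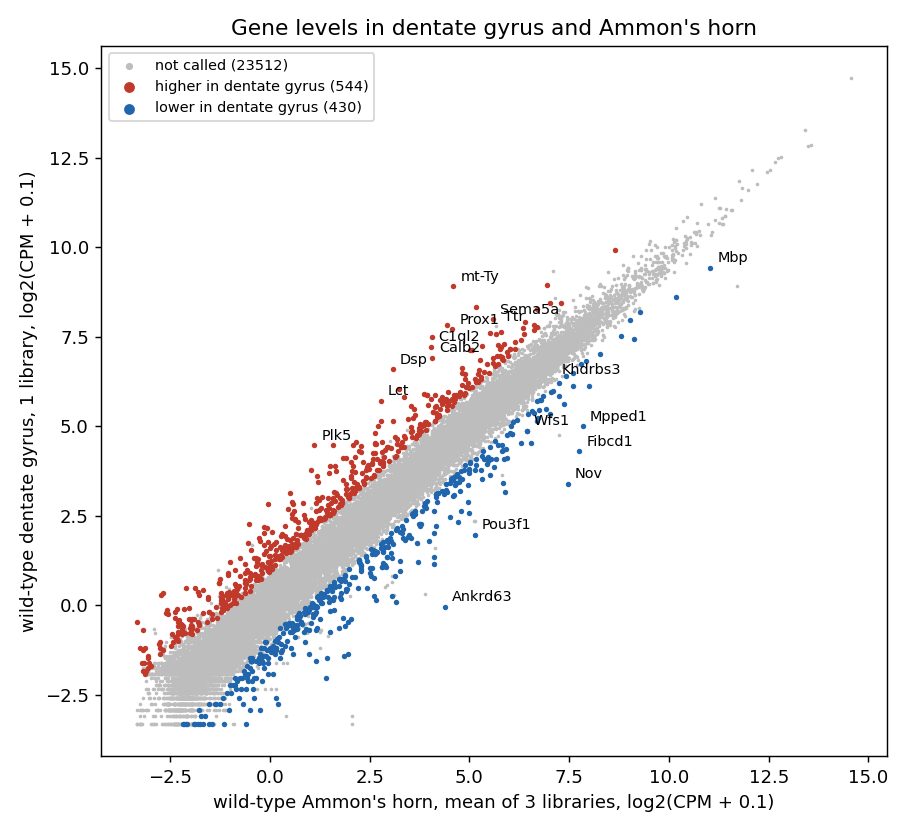
Level of each of the 24486 genes tested in wild-type Ammon's horn (mean of 3 libraries, horizontal axis) and in the dentate gyrus (1 library, vertical axis), both as log2(CPM + 0.1). The 544 genes called higher are red and the 430 called lower are blue; Dsp, Prox1 and C1ql2 stand above the diagonal and Nov, Fibcd1 and Ankrd63 below it.

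The labels of tissue were checked against known markers. Levels are CPM, the reads of a gene relative to the TMM-scaled size of its library, with Ammon's horn values given in the order of libraries 1, 2 and 3. Prox1 (ENSMUSG00000010175.7, mm10 chromosome 1, 190118038 to 190170680), the homeobox regulator that sets and keeps granule cell identity, stood at 209.9 CPM in the dentate gyrus and at 24.1, 18.9 and 27.9 in Ammon's horn. C1ql2 (chromosome 1, 120340582 to 120343171), a secreted C1q-like protein of mossy fibre synapses, stood at 149 and at 16.1, 14.3 and 18.7 CPM. Dsp (chromosome 13, 38151328 to 38198577), which encodes desmoplakin, stood at 95.8 and at 9.78, 6.33 and 9.01 CPM. The dentate gyrus value of each of the 3 genes was several times the highest Ammon's horn value. The log2 fold changes were 3.15 (SE 0.18), 3.18 (SE 0.18) and 3.52 (SE 0.26), with adjusted p-values from edgeR of 2.59e-06, 2.97e-06 and 1.33e-05.

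The CA1 markers went the other way. Fibcd1 (chromosome 2, 31813290 to 31846005), which encodes a membrane receptor for acetylated sugars, stood at 19.6 CPM in the dentate gyrus and at 203, 212 and 232 in Ammon's horn (log2 fold change -3.46, SE 0.11). Wfs1 (chromosome 5, 36966104 to 36988982), the gene of the endoplasmic reticulum protein wolframin, stood at 29.2 and at 71.0, 98.4 and 90.5 CPM (-1.57, SE 0.16). Their adjusted p-values from edgeR were 9.96e-08 and 1.02e-04. Both tissue labels therefore matched these granule cell and CA1 markers, and neither set of markers was at 0 in the other region. The match does not extend to CA2 and CA3 genes, taken up below. Their summed levels in the dentate gyrus were 99.7% (76.9% without Pcp4) and 108.9% of the Ammon's horn mean.

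Among the gene lists used here, that of granule cells held the most genes called higher. The lists were chosen with earlier results of these data known, so their counts are descriptions and no independent test. Over all genes tested 2.22% were called higher and 1.76% lower, the shares to set beside the counts of each list. Of the 18 granule cell genes listed, 16 were called higher and 0 lower, with a median log2 fold change of 2.11 against -0.01 over all genes. Their summed level was 2068.7 CPM in the dentate gyrus and 1078.2, 1028.8 and 1066.2 in Ammon's horn, or 195.6% of the mean. Without 1 record, Pdzd2, which holds a pseudogene and was left out after its values were seen, the sums were 1549.3 CPM and 379.4, 327.1 and 374.5, or 430.0%. Plk5, a polo-like kinase of neurons, stood at 21.9 CPM and at 2.21, 1.72 and 2.24 in Ammon's horn (log2 fold change 3.42, SE 0.20). Lct, the lactase gene, stood at 52.1 and at 6.11, 6.29 and 7.85 CPM (2.95, SE 0.26). Npnt, which encodes the matrix protein nephronectin, stood at 65.6 and at 9.01, 8.41 and 10.6 CPM (2.81, SE 0.19). In each of the 16 the dentate gyrus value was above all 6 Ammon's horn libraries. Tdo2 (tryptophan dioxygenase) and Glis3 (a zinc-finger regulator) followed with log2 fold changes of 2.79 and 2.37.

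Calb1, which encodes the calcium buffer calbindin, was 1 of the 2 members not called. It stood at 151 CPM and at 95.5, 82.0 and 82.7 in Ammon's horn, a log2 fold change of 0.80 that passed the adjusted p (1.38e-04) but not the 2-fold rule. Pdzd2 was the other, at 519 CPM against 699, 702 and 692, a log2 fold change of -0.43. Its record in the gene table includes an overlapping processed pseudogene, Gm2606 (chromosome 15), which held 84.5% of the Pdzd2 reads in the dentate gyrus and 94.2% across the wild-type Ammon's horn libraries. Counted over exon bins alone, Pdzd2 was higher in the dentate gyrus (1.71, SE 0.12, with an adjusted p of 1.43e-06 by edgeR). The pseudogene record itself had a log2 fold change of -0.58 (SE 0.07).

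Other genes among the 15 with the largest rise included Pdyn, Dgkh and Vgll3. Pdyn, the precursor of the opioid peptide dynorphin, stood at 22.02 CPM and at 2.67, 2.96 and 3.08 in Ammon's horn (log2 fold change 2.92, SE 0.26). Dgkh, a diacylglycerol kinase, stood at 56.4 and at 9.61, 8.53 and 12.4 CPM (2.47, SE 0.24). Vgll3, a cofactor of TEAD transcription factors, stood at 12.1 and at 2.46, 2.04 and 2.01 CPM (2.48, SE 0.23), and at 3.20 to 5.16 in the knockout libraries. For all 3 genes the dentate gyrus lay above every Ammon's horn library of either genotype.

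Mossy cells and newborn neurons, also of the dentate gyrus, showed fewer calls. Calb2, which encodes calretinin and marks mossy cells and young granule cells in the mouse, stood at 120.5 CPM and at 14.6, 10.4 and 24.6 in Ammon's horn (log2 fold change 2.87, SE 0.30). With Csf2rb2 (1.71, SE 0.24) it made 2 of the 5 mossy cell genes called higher. Among 13 genes of adult neurogenesis 4 were called higher and 0 lower, with a median of 0.59. Mki67, a marker of dividing cells, stood at 4.55 CPM and at 0.936, 0.782 and 1.89 (1.92, SE 0.36). Igfbpl1, expressed in young neurons, stood at 3.10 and at 0.401, 0.565 and 1.46 CPM (1.94, SE 0.50). Neurod1, a basic helix-loop-helix factor of granule cell development, stood at 31.4 and at 12.05, 9.75 and 12.54 CPM (1.46, SE 0.13), in a record that overlaps Cerkl. Dcx (doublecortin), the common marker of migrating young neurons, had a log2 fold change of 0.59 (SE 0.13) and was not called by the 2-fold rule. Sox4 and Nes were not called either, at -0.45 and -0.21. Without Ammon's horn library 1 the list had 3 genes higher, without library 2 it had 3 higher and 1 lower, and without library 3 it had 6 higher.

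All 8 CA1 genes, also listed with earlier results known, were called lower, with a median log2 fold change of -2.41. Their summed level in the dentate gyrus was 15.5% of the Ammon's horn mean, at 135.8 CPM against 885.4, 887.5 and 861.2. Nov, a secreted matricellular protein, stood at 10.4 CPM and at 197, 177 and 156 in Ammon's horn (-4.09, SE 0.16). Pou3f1, a POU-domain transcription factor, stood at 3.79 and at 40.2, 35.3 and 29.4 CPM (-3.20, SE 0.18). Mpped1 stood at 32.0 and at 228, 236 and 224 CPM (-2.84, SE 0.09). Man1a and Dcn followed at -1.83 and -1.57.

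The lowest genes relative to Ammon's horn included several outside that list. Among called genes with a mean of at least 5 CPM over the 2 regions, Ankrd63 had the largest fall, at 0.868 CPM in the dentate gyrus and 22.1, 21.0 and 19.3 in Ammon's horn (log2 fold change -4.58, SE 0.17). Spink8, a gene of a predicted protease inhibitor, stood at 2.43 and at 18.6, 19.4 and 14.2 CPM (-2.84, SE 0.20). Ptpru, a receptor tyrosine phosphatase, stood at 8.78 and at 61.3, 62.8 and 54.0 CPM (-2.76, SE 0.11). In all of them the dentate gyrus was far below the lowest Ammon's horn library, without reaching 0. Dlk1, Gpr161, Crhbp (the binding protein of corticotropin-releasing hormone) and Hs3st2 (a heparan sulfate sulfotransferase) had log2 fold changes of -2.57, -2.46, -2.43 and -2.23.

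Few CA2 and CA3 genes were called. Of 6 CA2 genes 0 were called in either direction, with log2 fold changes from -2.76 (Avpr1b, at 0.0322 CPM against 0.267, 0.116 and 0.318, named after its values were seen) to 0.94. Their summed level in the dentate gyrus was 99.7% of the Ammon's horn mean, and 76.9% without Pcp4. Pcp4, a calmodulin-binding peptide whose record lies within that of Igsf5, was the highest of them, at 88.5 CPM against 43.4, 48.1 and 47.1 (log2 fold change 0.94, SE 0.09), and passed the 2-fold rule only without scaling (1.03). Rgs14, a regulator of G-protein signalling that marks CA2, stood at 54.5 and at 75.3, 79.6 and 66.4 CPM (-0.44, SE 0.10). In the fit without Ammon's horn library 2, 1 CA2 gene was called lower. On exon bins alone 1 was also lower, Map3k15 (-1.57), whose record overlaps Pdha1 and which stood at -0.46 in the gene table. Of 9 CA3 genes 1 was called higher and 0 lower, and the summed level was 108.9% of the Ammon's horn mean. That gene was Coch (cochlin), at 7.40 CPM against 3.04, 3.03 and 2.98 (1.30, SE 0.15). Cpne4 and Grik4, a copine and a kainate receptor subunit, had log2 fold changes of 0.33 (SE 0.07) and 0.25 (SE 0.09). The plot of marker and receptor genes in each library shows the separation of granule and CA1 genes and the smaller differences of the 4 CA2 and CA3 genes.

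**Figure D2:**
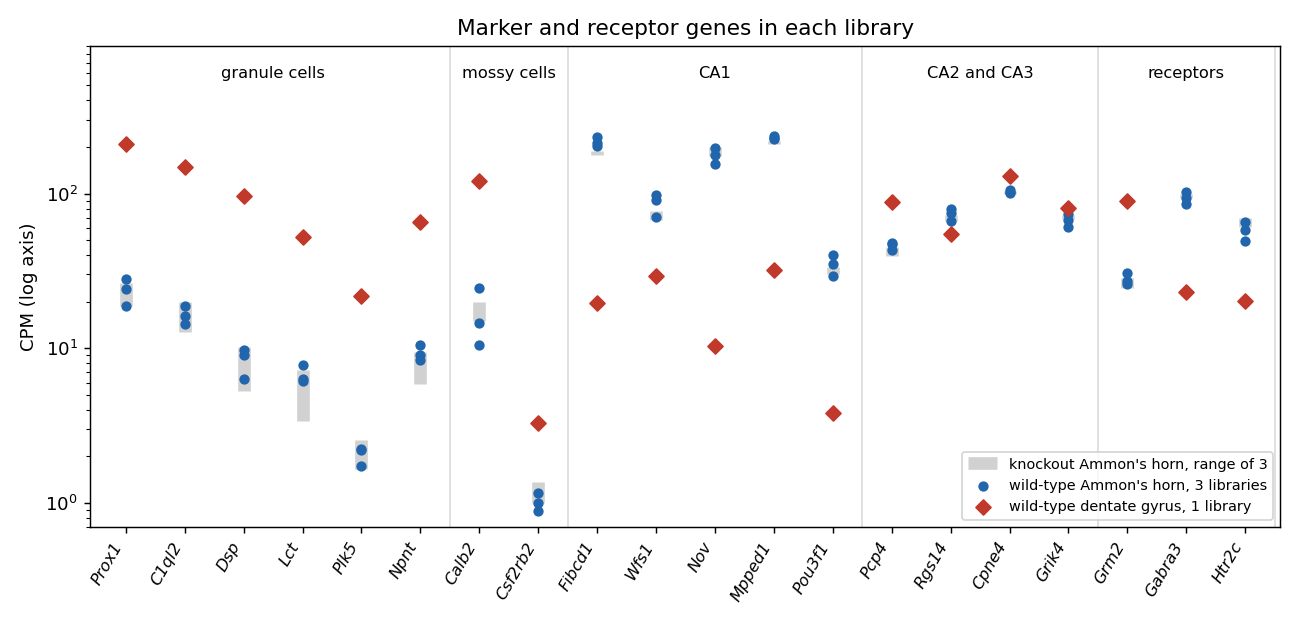
Level of 20 marker and receptor genes (CPM, log axis) in the dentate gyrus library (red diamonds), in the 3 wild-type Ammon's horn libraries (blue points) and in the 3 knockout Ammon's horn libraries (grey bars, lowest to highest). For granule cell genes the dentate gyrus lies above every Ammon's horn library and for CA1 genes below, while Grik4 stands at 80.2 CPM against 60.9, 67.9 and 74.1 across the wild-type Ammon's horn libraries.

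Transcription factors were called in both directions. Of 40 neuronal transcription factors 3 were called higher and 4 lower, and without scaling 5 and 3. Rfx3, a factor of the RFX family best known for ciliary genes, stood at 139 CPM and at 32.4, 29.4 and 38.1 in Ammon's horn (log2 fold change 2.06, SE 0.13). Meis2, a TALE homeobox factor, stood at 10.6 and at 59.6, 57.7 and 54.0 CPM (-2.43, SE 0.10). Zbtb20, a zinc-finger factor needed for hippocampal neuron identity, stood at 302 and at 146, 125 and 183 CPM. Its log2 fold change of 0.997 (SE 0.16) was just below the rule, and without Ammon's horn library 3 it was 1.16 and called. Neurod6, a factor of pyramidal neurons, stood at 133 CPM against 258, 248 and 235 (-0.90, SE 0.09) and was not called.

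Of 18 subunits of ionotropic glutamate receptors 0 were called, with a median log2 fold change of -0.0017. Gria1 and Gria2, the main AMPA receptor subunits, had log2 fold changes of 0.36 (SE 0.07) and 0.44 (SE 0.08), which passed the adjusted p but not 2-fold. Of the 8 metabotropic glutamate receptors 1 was called. Grm2, the presynaptic receptor that dampens release from mossy fibres, stood at 89.6 CPM and at 26.2, 30.5 and 27.1 in Ammon's horn (1.68, SE 0.10).

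GABA receptor genes showed 1 call in each direction among 16. Gabra3, the alpha3 subunit, stood at 23.1 CPM in the dentate gyrus and at 103, 93.6 and 85.2 in Ammon's horn (log2 fold change -2.02, SE 0.11). Gabrd, the delta subunit of extrasynaptic receptors that carry tonic inhibition, stood at 25.5 and at 9.68, 10.54 and 11.01 CPM (1.29, SE 0.12). Gabbr1, of the GABA-B receptor, was not called, at -0.20 (SE 0.07).

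Calls among voltage-gated and related channels were small in number. Over all genes tested 2.22% were higher and 1.76% lower. Of 58 potassium channel genes 2 were higher and 1 lower, with a median of 0.28, and without Ammon's horn library 1 the counts were 1 and 0, without library 2 they were 2 and 0, and without library 3 they were 4 and 1. Without scaling they were 4 and 0, and on exon bins alone 2 and 4. Kcnj2, an inward rectifier that holds the resting potential, stood at 12.1 CPM and at 4.22, 4.16 and 3.68 (log2 fold change 1.59, SE 0.15). Of 37 sodium, calcium, HCN and TRPC channel genes 3 were higher and 2 lower, above the shares over all genes in both directions. Without Ammon's horn libraries 1, 2 and 3 in turn these counts were 1 and 1, then 2 and 2, then 4 and 2. Trpc6, a cation channel also on the granule cell list, stood at 54.3 and at 16.02, 16.8 and 16.3 CPM (1.73, SE 0.09). Kcnj2 and Trpc6 were called under every alternative tried.

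Genes of synaptic adhesion included large changes in both directions. Of 46 genes 2 were higher and 5 lower, and the counts were 4 and 4 both without scaling and on exon bins alone. The higher genes were C1ql2, given above, and its relative C1ql3, at 189 CPM and at 55.5, 45.7 and 51.6 in Ammon's horn (log2 fold change 1.89, SE 0.09). Nxph3, a neurexophilin that binds alpha-neurexins, stood at 2.12 and at 18.8, 17.8 and 14.97 CPM (-3.01, SE 0.17). Cbln1, a cerebellin that bridges neurexins and delta-type glutamate receptors, stood at 0.997 and at 4.05, 7.76 and 7.03 CPM (-2.66, SE 0.36). Lphn2 (latrophilin-2) and Cbln4 had log2 fold changes of -2.10 (SE 0.15) and -1.55 (SE 0.21). Secreted C1q-family synaptic organizers therefore appeared on both sides, C1ql2 and C1ql3 higher and Cbln1 and Cbln4 lower.

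Among 58 axon guidance genes 4 were higher and 2 lower, and without scaling these counts were 4 and 0. In the fit without Ammon's horn library 1 they were 4 and 1. Sema5a, a transmembrane semaphorin, stood at 254 CPM and at 46.2, 38.5 and 59.6 in Ammon's horn (log2 fold change 2.40, SE 0.17). Robo3, a receptor of the Roundabout family, stood at 5.26 and at 1.13, 1.59 and 1.37 CPM (1.94, SE 0.22). Epha7, an ephrin receptor, stood at 147 and at 55.1, 53.9 and 57.3 CPM (1.41, SE 0.11). The 3 genes stood above all 6 Ammon's horn libraries. Of 25 cadherins and protocadherins 2 were higher and 1 lower, and without Ammon's horn library 2 the counts were 1 and 1. Without scaling they were 3 and 1, and on exon bins alone 2 and 3. Cdh9, a cadherin of mossy fibre synapses, stood at 57.9 and at 15.9, 16.9 and 19.5 CPM (1.73, SE 0.11).

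Genes of synaptic vesicle release held 3 called higher and 4 lower of 43. Slc30a3, the transporter ZnT3 that fills vesicles with zinc, stood at 88.2 CPM and at 31.7, 28.9 and 28.6 in Ammon's horn (log2 fold change 1.57, SE 0.08). Synpr, the vesicle protein synaptoporin of mossy fibres, stood at 240.4 and at 88.4, 75.5 and 89.3 CPM (1.51, SE 0.09). Cplx3, a complexin, and Syt2, a fast calcium sensor of release, were lower at -1.92 (SE 0.20) and -1.56 (SE 0.13). Cadps2, a priming factor of dense-core vesicles, stood at 43.2 and at 117, 104 and 100.3 CPM (-1.30, SE 0.10). Snap25 and Syt1, core parts of the release machinery, were not called and had log2 fold changes of -0.57 (SE 0.10) and -0.36 (SE 0.07). The plot of gene lists sets these counts beside those of the other lists.

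**Figure D3:**
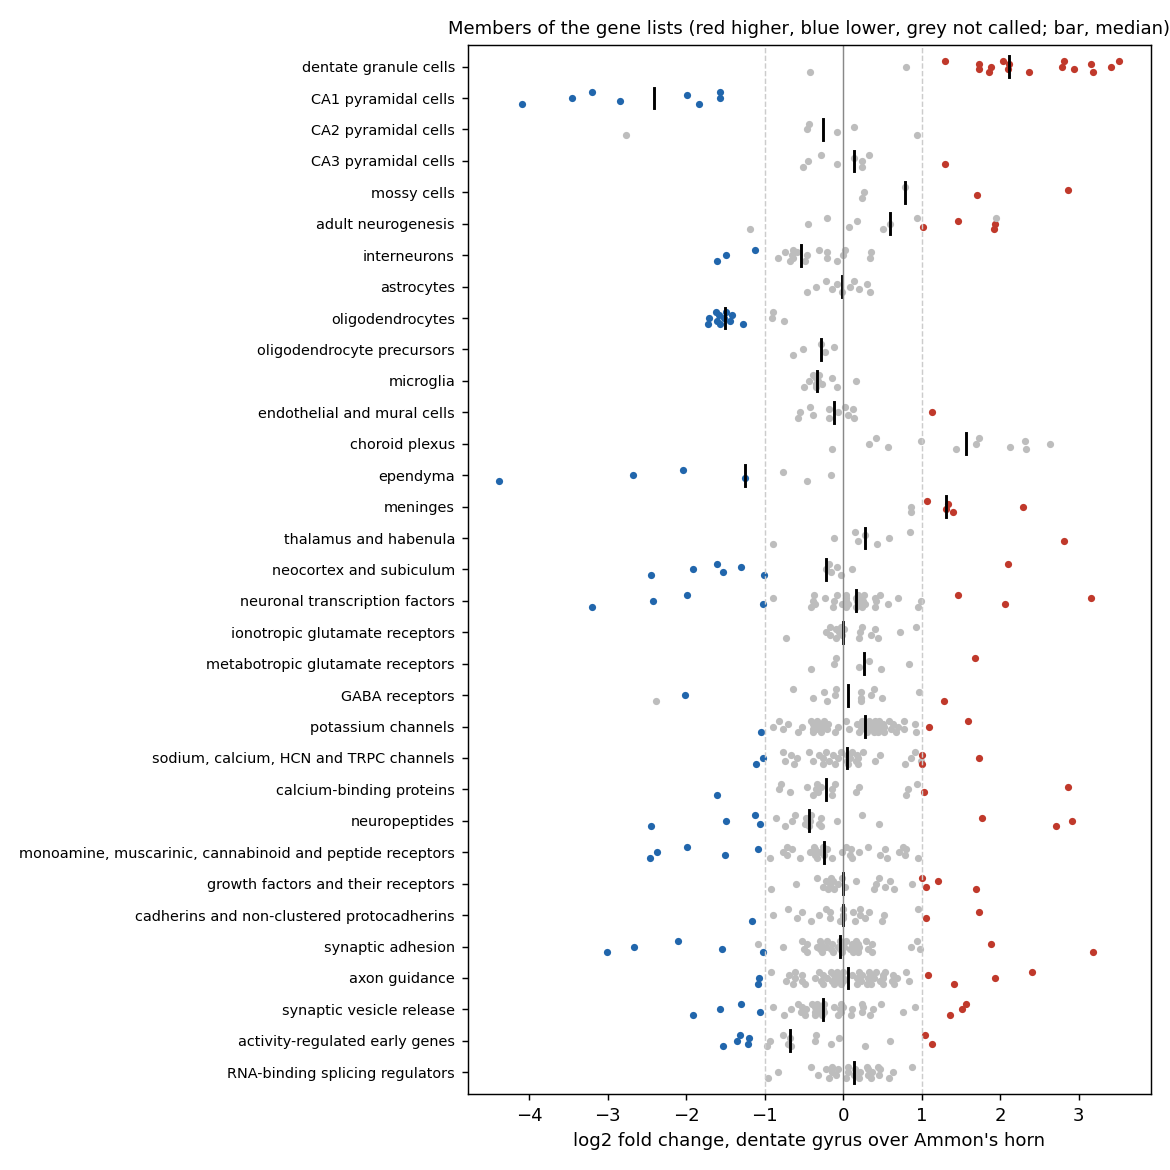
Log2 fold change, dentate gyrus over Ammon's horn, of every tested member of 33 gene lists (rows), with members called higher in red, called lower in blue and not called in grey; black bars mark the median of each list and dashed lines 2-fold. Granule cell genes lie to the right (median 2.11), CA1 and oligodendrocyte genes to the left (-2.41 and -1.50), and the lists of receptors, channels and synaptic genes centre near 0 with single members far out on either side.

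Neuropeptide genes showed 3 calls higher and 4 lower among 22, with a median log2 fold change of -0.43. Beside Pdyn, Adcyap1, the precursor of PACAP, was higher, at 8.06 CPM and at 2.92, 2.06 and 2.14 in Ammon's horn (1.77, SE 0.33). Nts (neurotensin) stood at 1.09 and at 8.17, 6.46 and 3.38 CPM (-2.45, SE 0.44). Vip and Sst, peptides of interneurons, were lower at -1.50 (SE 0.21) and -1.12 (SE 0.11). Receptors for monoamines, acetylcholine, cannabinoids and peptides had 0 higher and 5 lower of 36, and 1 and 5 without Ammon's horn library 3. Htr2c, the serotonin 2C receptor, stood at 20.2 CPM and at 58.0, 49.4 and 65.5 (-1.51, SE 0.15). Htr1b, the serotonin 1B receptor, stood at 1.83 and at 9.83, 9.44 and 9.24 CPM (-2.37, SE 0.17). The record of Htr1b overlaps an antisense gene, and counts with no strand stated cannot part the 2. On exon bins alone Htr1b was still lower (-2.13). Chrm5 and Oprk1, the muscarinic M5 and kappa opioid receptors, were lower at -2.47 (SE 0.30) and -1.99 (SE 0.27), both from levels of 1.94 to 3.03 CPM in wild-type Ammon's horn.

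Growth factor signalling genes were called in 1 direction, 4 higher and 0 lower of 26, and without Ammon's horn library 2 the counts were 3 and 1. Ntf3, neurotrophin-3, stood at 11.2 CPM and at 2.96, 3.62 and 3.80 in Ammon's horn (log2 fold change 1.69, SE 0.17). Gfra2, a co-receptor for neurturin, stood at 52.0 and at 23.7, 19.7 and 23.9 CPM (1.21, SE 0.10). Of 20 calcium-binding proteins 2 were higher (Calb2 and Hpcal1) and 1 lower (Pvalb). Hpca (hippocalcin), an abundant sensor of pyramidal cells, stood at 1053.0 CPM and at 1684.6, 1758.4 and 1601.7, a log2 fold change of -0.68 (SE 0.08) that was not called.

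Early genes that respond to neuronal activity were more often called lower than higher, with 2 called higher and 5 lower of 19 and a median log2 fold change of -0.68. Arc, an immediate early gene of dendrites, stood at 22.1 CPM and at 68.2, 56.7 and 43.8 in Ammon's horn (-1.35, SE 0.23). Egr1, Nr4a1 and Fosb, transcription factors of the same response, were lower at -1.20 (SE 0.15), -1.31 (SE 0.24) and -1.22 (SE 0.20). Nr4a2, also on the list of neocortex and subiculum genes, was lower at -1.53 (SE 0.14). Jun was higher, at 143 CPM and at 61.7, 59.9 and 73.1 (1.14, SE 0.12), in a record that overlaps an antisense gene. Bdnf had a log2 fold change of 0.60 (SE 0.10) and was not called. Without Ammon's horn library 2 the counts were 1 and 5, and without library 3 they were 2 and 7.

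Oligodendrocyte genes were lower in the dentate gyrus. Of 14 genes 11 were called lower and 0 higher, with a median log2 fold change of -1.50, and the dentate gyrus value of all 14 lay below the wild-type Ammon's horn range. The summed level was 1652.3 CPM in the dentate gyrus and 4818.8, 4724.2 and 4653.1 across the wild-type Ammon's horn libraries, or 34.9% of the mean, with 3985.5 to 4252.9 in the knockout. Mbp, which encodes a main protein of myelin, had a log2 fold change of -1.61 (SE 0.08). Mobp, Opalin and Cldn11, also of myelin, were lower at -1.71, -1.72 and -1.58. Olig1 and Olig2, factors shared with precursors, had changes of -0.90 and -0.76 and were not called. Cnp at -0.91 was not called in the gene table, where its record overlaps Dnajc7, but it was on exon bins alone (-1.30). Of 5 precursor genes measured 0 were called, with a summed level of 79.5% of the Ammon's horn mean. All 5 lay below the wild-type Ammon's horn range, as did 35.9% of all genes tested.

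Astrocyte and microglial genes showed no call, at 0 of 11 and 0 of 12. Their summed levels were 106.0% and 84.6% of the Ammon's horn mean. Of the 12 microglial genes 11 lay below the wild-type Ammon's horn range and 1 above it, while of the astrocyte genes 4 lay below and 5 above. The microglial sum, 537.6 CPM, was also below the knockout libraries, at 569.6 to 583.7. Slc1a2, the main glutamate transporter of astrocytes, had a log2 fold change of 0.21 (SE 0.11). Of 12 endothelial and mural genes only Acta2, the actin of smooth muscle, was called higher, at 47.4 CPM and at 21.6, 23.2 and 20.02 (1.13, SE 0.18). Interneuron genes had 0 higher and 3 lower of 20 and a summed level of 82.3%. Their median log2 fold change was -0.54, and 15 lay below the wild-type Ammon's horn range and 2 above it. Over all genes tested 35.9% lay below that range. Pvalb stood at 8.94 CPM and at 27.4, 28.8 and 25.8 (-1.61, SE 0.12), whereas Gad1, the GABA-synthesizing enzyme, stood at 214 and at 236, 213 and 191 CPM, within the Ammon's horn range.

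Genes of meninges and ependyma, tissues that border the hippocampus, also differed. Of 7 meningeal genes 5 were called higher, with a summed level of 175.0 CPM against 80.0, 78.8 and 86.8 (213.8% of the mean) and 69.3 to 96.2 in the knockout. Ogn (osteoglycin) and the collagen genes Col3a1, Col1a1 and Col1a2 were higher by 2.30, 1.40, 1.34 and 1.31 on the log2 scale. The record of Ogn lies within that of Cenpp, and on exon bins alone Ogn was higher by 2.34. Of 7 ependymal genes 4 were called lower and 0 higher, with a summed level of 53.9%. Dynlrb2, a dynein light chain of motile cilia, stood at 0.0482 CPM and at 1.26, 1.10 and 0.803 (-4.39, SE 0.61), and Ccdc153 at 0.563 and at 3.68, 3.75 and 3.38 CPM (-2.67, SE 0.27).

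Choroid plexus genes varied widely between Ammon's horn libraries. Ttr, transthyretin, stood at 222 CPM in the dentate gyrus, at 126, 21.9 and 5.67 across the wild-type Ammon's horn libraries and between 2.84 and 731 in the knockout. Of the 12 genes 0 were called in the fit of 7 libraries and 6 were called higher in the fit of the 4 wild-type libraries and in that without knockout library 2. Of 13 genes of neocortex and subiculum 1 was higher and 6 lower, with a summed level of 59.2%. Nr4a2, Nts and Cplx3, given above under other lists, belong to this list too, so the lists are not independent. Scnn1a, a sodium channel subunit, stood at 13.2 CPM and at 3.25, 2.65 and 3.33 (log2 fold change 2.11, SE 0.17), and Fezf2, a factor of deep-layer cortical neurons, at 10.2 and at 33.8, 32.9 and 27.1 CPM (-1.61, SE 0.13). Of the 9 tested genes of thalamus and habenula 1 was called higher, Shox2, at 0.675 CPM, within the 0.0803 to 0.708 CPM of the knockout libraries. When 1 wild-type Ammon's horn library was left out, 0 were higher, and 1 was lower without library 3. Every measured gene of these lists had reads in the dentate gyrus. How much the oligodendrocyte, meningeal, ependymal and cortical content of the libraries contributes to other differences was not tested.

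**Figure D4:**
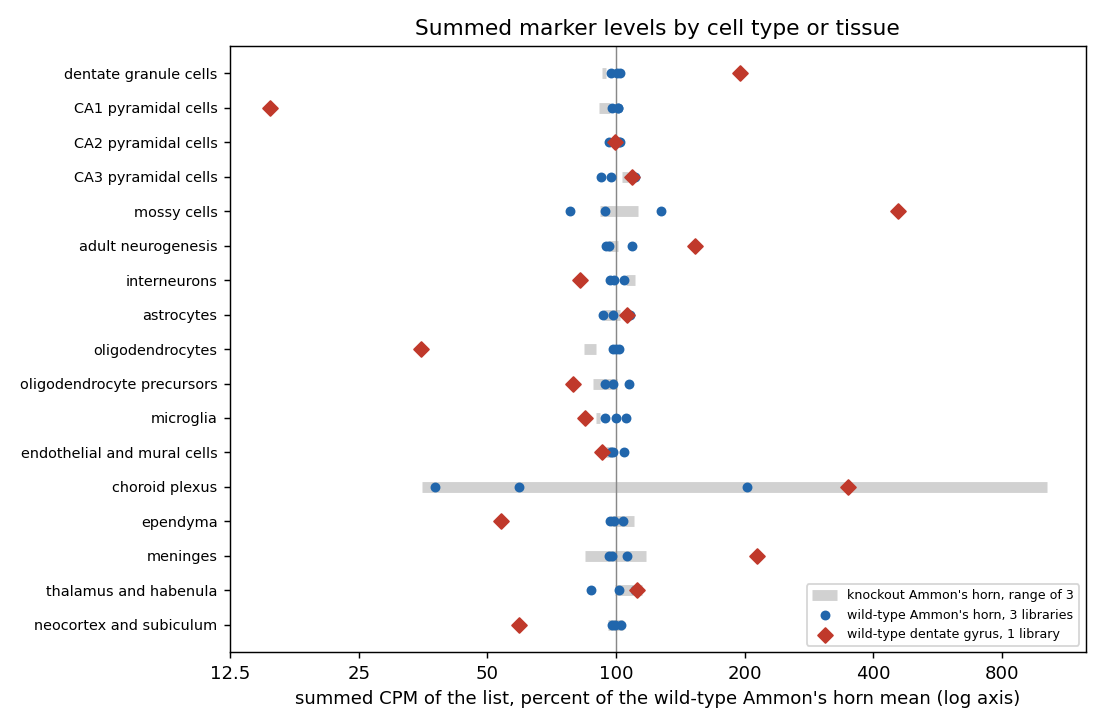
Summed CPM of 17 lists of cell type or tissue markers (rows) as a percentage of the wild-type Ammon's horn mean (log axis), with the dentate gyrus as red diamonds, the 3 wild-type Ammon's horn libraries as blue points and the knockout range as grey bars. The dentate gyrus stands at 195.6% for granule cells (430.0% without the record of Pdzd2), 15.5% for CA1, 34.9% for oligodendrocytes and 213.8% for meninges, outside all 6 Ammon's horn libraries, while choroid plexus spans a wide range within Ammon's horn.

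Some of the largest fold changes against wild-type Ammon's horn were matched by levels in knockout Ammon's horn. Of 22 mitochondrial tRNA records 5 were called higher against wild-type Ammon's horn, and all 5 stood below the highest of the knockout Ammon's horn libraries. The mitochondrial tyrosine tRNA record mt-Ty stood at 480.4 CPM in the dentate gyrus, at 22.3, 21.7 and 28.2 across the wild-type Ammon's horn libraries and between 482 and 841 in the knockout (log2 fold change 4.32, SE 0.22). The asparagine tRNA record mt-Tn stood at 321 CPM, at 26.9, 40.5 and 39.99, and between 382 and 481 in the knockout. At mt-Ty and mt-Tn the wild-type Ammon's horn libraries were thus the ones apart from the rest. At mt-Tk, also called, the knockout libraries ranged from 29.5 to 475.7 CPM. The dentate gyrus stood there at 178.2 and wild-type Ammon's horn at 22.9, 13.6 and 13.8 CPM. Of the 13 mitochondrial protein-coding genes 0 were called.

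Exon usage was read from the exon bins, which cut a gene's annotated exons into pieces that do not overlap, as the change of a bin relative to the rest of its gene. Of 166831 bins tested, 302 were used at least 2-fold more in the dentate gyrus (0.181%) and 27 at least 2-fold less (0.0162%) at an adjusted p under 0.05 in edgeR's diffSpliceDGE. Genes with a change in usage numbered 199 of 12131 (1.64%, Simes method). The counts without Ammon's horn library 1 were 168 bins more, 19 less and 93 genes. Among 85245 bins with coding sequence, 55 were used more and 6 less. Of those 55, 23 lay in Myo5b, whose highest bins had usage changes between -0.30 and -0.14, so that 32 lay in other genes. In 82 neuronal genes listed for known alternative exons, 12 of 2513 bins were used more and 1 less.

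The start of an exon of Asic2 is shown because usage of that exon differed and it changes the encoded protein. For chr11:81968035-81968184, minus strand, the first 150 coding bases of a transcript with its own first exon are given 5' to 3' on the strand of the gene, from GENCODE M21 on GRCm38 (mm10), with the start codon in capitals.
Asic2 first exon: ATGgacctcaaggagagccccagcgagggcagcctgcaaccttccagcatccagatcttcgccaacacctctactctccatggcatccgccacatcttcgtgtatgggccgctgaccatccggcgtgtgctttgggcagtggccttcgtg

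Nrxn2 encodes the presynaptic receptor neurexin-2, and the 90-bp exon of bin 44 is its insert at splice site 4, which is known to alter binding to postsynaptic partners. It took 3.66% of the gene's exon reads in the dentate gyrus (375 reads, 95% Clopper-Pearson interval 3.30 to 4.04%, which covers counting error only). In wild-type Ammon's horn it took 1.44%, 1.43% and 1.53% (131, 174 and 179 reads), and in the knockout libraries 4.89 to 5.21%. The dentate gyrus value lay between the 2 Ammon's horn genotypes, above all wild-type and below all knockout libraries. The usage change against wild type was 1.31 on the log2 scale, with SE 0.14 and an adjusted p of 1.75e-12 by edgeR, while the level of the whole gene had a log2 fold change of -0.13 (SE 0.10).

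Il1rap encodes the accessory chain of the interleukin-1 receptor, and a brain form known as IL-1RAcPb ends in a later last exon. The gene as a whole was higher in the dentate gyrus, at 80.2 CPM and at 27.6, 29.5 and 31.9 in Ammon's horn (log2 fold change 1.43, SE 0.09). Il1r1, the ligand-binding chain of the same receptor, named here after its values were seen, was higher too, at 32.3 and at 6.01, 6.76 and 6.66 CPM (2.31, SE 0.16). Bin 17 of Il1rap (chr16:26715069-26717744), the untranslated end of the common form, took 5.06% of the exon reads in the dentate gyrus (173 reads) and 19.7%, 17.8% and 16.8% across the wild-type Ammon's horn libraries (usage change -1.84, SE 0.15). The coding bin 19 (chr16:26722434-26722931), in the later exon, took 11.3% and 6.65%, 8.85% and 6.002%, a usage change of 0.65 (SE 0.15) that was below 2-fold and not called, and was chosen after its values were seen. The untranslated end of the common form thus took a smaller part of a gene that was higher as a whole.

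Asic2 encodes an acid-sensing ion channel, and its bin 11 (chr11:81967630-81968457) is the first exon of the form ASIC2a, whose first codons are shown above. It took 0.829% of the exon reads in the dentate gyrus (16 reads, interval 0.474 to 1.34%) and 2.43%, 3.20% and 2.80% across the wild-type Ammon's horn libraries (usage change -1.75, SE 0.29). In Tiam2, a Rac activator that was higher as a gene (log2 fold change 1.31, SE 0.09), bin 4 took 0.583% (10 reads) and 3.82%, 5.26% and 6.33% (-3.37, SE 0.36). Both bins rest on few reads in the dentate gyrus.

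Mbp, lower as a gene, had a bin used more. Bin 17 took 6.09% of its exon reads in the dentate gyrus (1947 reads) and 1.14%, 1.21% and 1.33% across the wild-type Ammon's horn libraries (usage change 2.32, SE 0.11). Oligodendrocyte genes as a list were lower in the dentate gyrus, at 34.9% of the Ammon's horn mean, and their part in this share was not tested.

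Cxcl12, the chemokine of the CXCR4 receptor whose forms differ in their last exons, was named after its values were seen. Bin 6 (chr6:117173579-117175069), in the last exon of the alpha form, took 48.3% of the exon reads in the dentate gyrus and 19.2%, 20.7% and 18.6% across the wild-type Ammon's horn libraries (usage change 1.31, SE 0.12). Bins 9 and 10, in the last exons of the other forms, took 12.01% and 16.8% in the dentate gyrus, against 27.0 to 28.7% and 35.3 to 36.9%, with usage changes of -1.21 (SE 0.14) and -1.11 (SE 0.13). The gene as a whole was not called (0.85, SE 0.11).

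**Figure D5:**
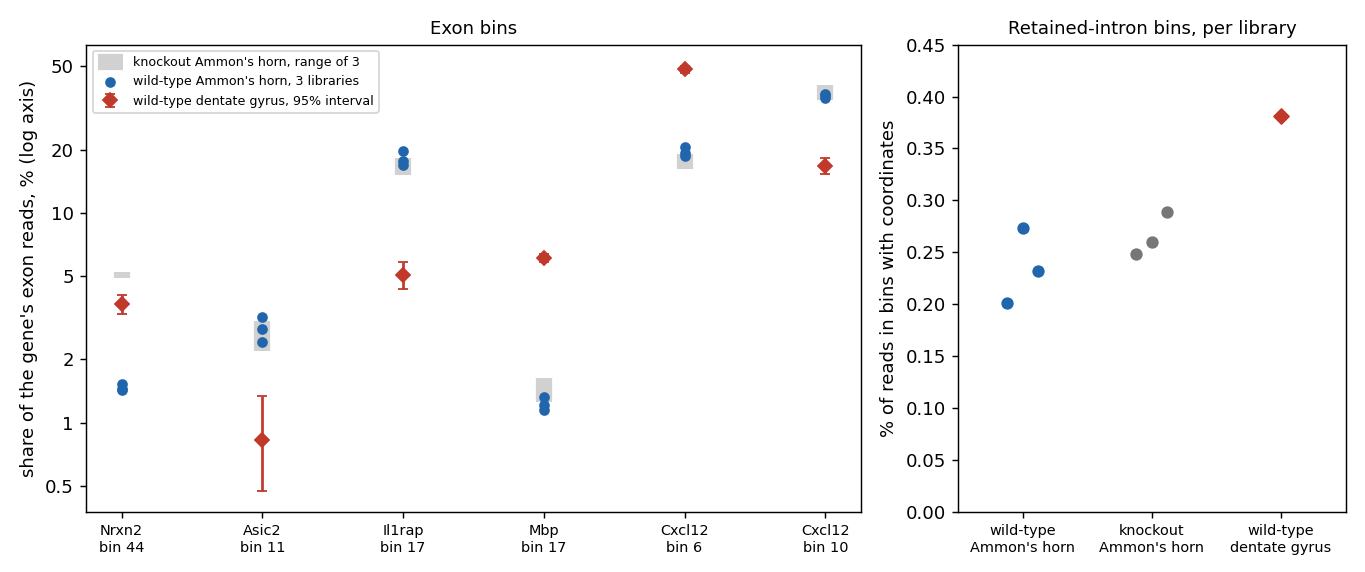
Left, share of a gene's exon reads in 6 exon bins of 5 genes (percent, log axis) in the dentate gyrus (red diamonds with 95% counting intervals), in 3 wild-type Ammon's horn libraries (blue) and in the knockout range (grey). Right, share of reads in retained-intron bins per library, 0.381% in the dentate gyrus and at most 0.289% in the Ammon's horn libraries; in Nrxn2 bin 44 the dentate gyrus lies between the 2 Ammon's horn genotypes.

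Bins that belong only to transcripts annotated as retaining an intron made up 99 of the 302 bins used more and 0 of the 27 used less. There were 1365 such bins tested in 844 genes, and 7.25% of them were called more, against 0.0645% of coding bins. Their median usage change was 0.75, against 0.01 for coding bins. In 72.5% of them the dentate gyrus share was above all 3 wild-type Ammon's horn libraries, against 28.0% of coding bins. A bin was tested when the mean of its 2 region means reached 10 reads. Bins sparse in Ammon's horn could thus enter through the single dentate gyrus library. Recql5 bin 13, for example, entered with 26 reads there, while Ammon's horn libraries 1, 2 and 3 held 3, 3 and 2. How far such entry contributes to the 7.25%, the median of 0.75 and the 72.5% was not tested. Retained-intron bins held 0.381% of the reads in bins with coordinates in the dentate gyrus. Their share was 0.201%, 0.273% and 0.232% across the wild-type Ammon's horn libraries and 0.248%, 0.260% and 0.289% in the knockout. Reads in no bin, which include intronic reads, were also most frequent in the dentate gyrus, at 4.83% against 3.53 to 4.20% in Ammon's horn. The part of pre-mRNA content in these calls was not tested. Without Ammon's horn library 1, which had the lowest share, 46 of these bins were called more.

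Of the 28 RNA-binding splicing regulators listed, 0 were called by the 2-fold rule in the gene table. On exon bins alone 2 of the listed regulators were called higher and 0 lower. Khdrbs3 (chromosome 15, 68928420 to 69093512) stood at 78.8 CPM in the dentate gyrus and at 142, 143 and 134 across the wild-type Ammon's horn libraries, a log2 fold change of -0.83 with SE 0.07 and an adjusted p of 4.27e-05 by edgeR. Its relatives Khdrbs1 (SAM68) and Khdrbs2 (SLM1) had log2 fold changes of 0.44 (SE 0.06) and 0.47 (SE 0.13). On exon bins alone Khdrbs2 was called higher (1.52, SE 0.14), and the gene table, which counts introns, gave the smaller value. Rbfox1, another neuronal splicing regulator, stood at 380 CPM and at 262, 229 and 240.1 (0.64, SE 0.09).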

How the data were processed

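Samples were grouped by the genotype and tissue in the labels, and replicate numbers follow accession order only. Per the labels' protocols, polyadenylated RNA of dissected regions was sequenced from TruSeq libraries. The authors deposited whole-number read counts, as a table of gene counts and as files of counts per exon bin in each library. Tools listed in the submitters' processing notes, without role or order, are bedtools 2.17.0, TopHat2 2.0.8b, DESeq2 1.0.19 and Trim Galore 0.3.5, and the build is mm10. Comparison with the exon bins showed that the gene table also holds intronic reads, and no strand is stated, so overlapping records share reads.

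Counts were fitted with edgeR 4.0.16 in R 4.3.3 (TMM scaling, filterByExpr, quasi-likelihood F test) over 7 libraries in 3 groups, with 4 residual degrees of freedom, and wild-type dentate gyrus was contrasted with wild-type Ammon's horn. The biological coefficient of variation was 10.8%. A standard error is the fold change divided by the square root of F. Exon usage was tested with diffSpliceDGE on bins whose mean of the 2 region means was at least 10 reads, in genes with at least 2 such bins. A bin's change is relative to the rest of its gene. Reads that fell in more than 1 feature made up 1.73 to 2.00% of the exon-bin files and reads in no bin 3.53 to 4.83%, and both stayed out of the fits. Bin positions were rebuilt from GENCODE M21 (mm10) for 26589 gene groups, and 11129 could not be rebuilt and have no coordinates here.

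The members and the 34 gene lists were chosen with earlier results of these data known. Genes named are the 15 largest changes in each direction at a mean of at least 5 CPM, the given markers, up to 8 called and 4 uncalled members of each list, the KHDRBS family, and, for exon usage, called bins with at least 2% of their gene's reads; exceptions are marked. Simulated counts were drawn from wild-type Ammon's horn means. They had 1 fixed spread for all genes and 1 for all bins, the same in every library, the dentate gyrus included. They therefore cannot test how far dentate gyrus libraries vary. On simulated counts (24055 genes) the gene fit recovered 93 of 100 genes changed 2-fold and 100 of 100 changed 4-fold. It made 10 false calls, 3 of them at least 2-fold. Recovered and false calls, for genes and for the bins that follow, were counted by the adjusted p alone. Recovery under the full rule, with its 2-fold limit, was not tested. On 162230 simulated bins 27 of 100 changed 2-fold and 91 of 100 changed 4-fold were recovered, with 103 false calls, 94 of them at least 2-fold; 17 of the 103 were in the direction of more use, and 7 lay outside genes with a truly changed bin. Alternatives were other scalings, filters, DESeq2 1.42.0, limma 3.58.1 (voom), exon-bin sums, fits without mitochondrial genes or with the 4 wild-type libraries alone, and leaving out each Ammon's horn library. Summed levels without Pdzd2 and without Pcp4 were added after seeing the data. Some named members and sequences are not reported here.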

Additional observations from a re-analysis of the deposited data

How the results depend on the processing

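Counts of genes called stayed within 1.5 times the reported values under the alternatives tried. In these fits, genes called higher in the dentate gyrus numbered 446 with DESeq2, 631 with limma-voom, 728 without scaling and 511 on exon-bin sums, beside 544, and genes called lower in the dentate gyrus 391, 367, 334 and 446, beside 430. Leaving out 1 Ammon's horn library gave 496 to 536 genes higher and 401 to 464 lower. Every one of the 974 called genes kept its direction in the gene-table fits that tested it. On exon-bin sums 707 of the 716 tested kept it and 586 were still called. DESeq2 still called 817 of them, and leaving out 1 wild-type Ammon's horn library left 805 to 844.

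Exon usage depended more on the settings. With bins kept at a mean of at least 30 reads, 184 bins were used more and 57 of these were retained-intron bins. Genes with a usage change numbered 313 with limma's diffSplice and 129 with the 4 wild-type libraries alone, beside 199. Leaving out 1 Ammon's horn library gave 168 to 395 bins used more, 19 to 33 used less, 93 to 233 genes and 46 to 143 retained-intron bins. The lowest of these for bins used more, genes and retained-intron bins came without wild-type library 1, and the cause was not tested.

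Among named genes, Pdzd2 reversed to 1.71 on exon-bin sums, which leave out its intronic pseudogene. Gad1, near 0 throughout, was -0.0024 under a filter of 10 mean counts and between -0.070 and 0.081 when 1 Ammon's horn library was left out. No paired analysis was possible because the labels give no replicate numbers and the dentate gyrus has 1 library. With 1 dentate gyrus library the spread in that region is unknown, and bins with few reads, such as those of Asic2 and Tiam2, are limited by depth.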
